A study of Cuscuta campestris with 8 samples.

Results

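Cuscuta campestris genes with low read counts that were higher in the shoot than in the haustorial region, and whose identifiers follow one another without a gap, are described here. Each gene in the deposited count files is known only by the letters Cc and a number. The members were chosen by their levels in all 8 libraries. A gene was flagged when its mean level in 4 shoot libraries was at least 2 times its mean in 4 haustorial libraries and every shoot value lay above every haustorial value. Levels are CPM, counts per 1000000 counts of the scaled library, and 0.1 CPM was added to both means before the ratio was taken. Flagged genes whose numbers rose by exactly 1 were joined into runs of at least 4, and the run genes with a mean under 10 CPM over the 8 libraries are the members. The files list 45825 genes, of which 32855 had enough counts to be tested. The flagged genes were 4835 (14.7% of those tested), and 175 of them stood in 40 runs. The members are 127 of these 175 genes and come from 39 of the runs. Of the 13646 tested genes with a mean under 10 CPM, 22.3% were flagged, and without regard to the size of the ratio all shoot values lay above all haustorial values in 31.8% of tested genes.

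Cuscuta campestris, a dodder, has no working leaves or roots as an adult and lives on host stems, into which its haustoria grow to draw water and nutrients. In plant genomes, genes that lie side by side can be copies of each other made by tandem duplication, or steps of a shared biosynthetic route, and such neighbours are often active in the same tissue. Whether the Cc numbers follow the order of genes on the chromosomes is not given in the sources used here. No gene names accompany the identifiers, and a table of 45474 genes of the species matched 0 of the identifiers, so no member can be given a function, a position or a sequence. The tissues could not be checked against marker genes for the same reason.

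The shoot group held 4 pools of new, turgid shoots with their stem tissue and meristems, from which the 5 mm of stem nearest the haustorial region had been cut away. The haustorial group held 4 pools of stem regions with healthy holdfasts, freed of shoots and of visible meristems. Each pool came from 3 to 4 plants. All plants had been started from shoot tips of 3 cm cut from parasites on Beta vulgaris (beet), and were grown for 15 days on an artificial host with a liquid medium containing the auxin 1-naphthaleneacetic acid at 3 mg per litre and the cytokinin 6-benzylaminopurine at 1 mg per litre. Light was enriched in far-red for the first 2.5 days and had the full spectrum for the next 12.5 days. The tissues differ in meristem content and in contact with the artificial host as well as in haustoria, and these cannot be told apart. A lower level of a gene in a pool can come from fewer cells that express it or from less RNA per cell, which bulk samples also cannot tell apart.

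Library totals ran from 22334600 to 34247925 counts in the shoot and from 23465088 to 31246017 in the haustorial region. Log2 levels correlated across genes at 0.989 to 0.992 between shoot libraries, at 0.983 to 0.990 between haustorial libraries and at 0.813 to 0.841 between tissues; genes are not independent replicates. At these depths 3 counts equal 0.0829 to 0.135 CPM. In the shoot the members stand well above this floor, with a median of 536 counts per member over the 4 libraries and at least 63. This follows from the filter and the rule, since a gene with few haustorial counts is tested only through its shoot counts. All 127 members had at least 10 counts in every shoot library, and 64 to 72 of them did in each haustorial library. In the haustorial region the median was 47 counts.

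The 127 members together had 16043 to 23434 counts in each shoot library and 2856 to 3463 in each haustorial library. This was 0.0723% ± 0.00402 (SD, n = 4) of the counts of the shoot and 0.0122% ± 0.000785 of those of the haustorial region. Their summed level was 677 ± 29.3 CPM in the shoot and 130.0 ± 6.67 CPM in the haustorial region. All 127 members had a count in every shoot library, and 104 to 114 of them had one in each haustorial library. These values follow from how the members were chosen and are given as a description.

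The median ratio of shoot over haustorial region was 5.69 among members, with quartiles of 3.14 and 12.3, against 1.01 over all tested genes and 1.11 over the 13646 tested genes under 10 CPM. A ratio of at least 8 was found for 44 members, where 4% of all tested genes had one, and a ratio of at least 16 for 26 members, where 2.04% of all tested genes had one. The rule admits only ratios of at least 2, so the members exceed all tested genes by choice. At the other end, 29 members had ratios under 3. In edgeR's quasi-likelihood fit over all genes, each of the 127 members had an adjusted p under 0.05 and a higher level in the shoot, beside 34% of tested genes called higher in the shoot and 65.2% called in either direction. Because the same libraries chose the members, nothing is read from that count.

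**Figure D1:**
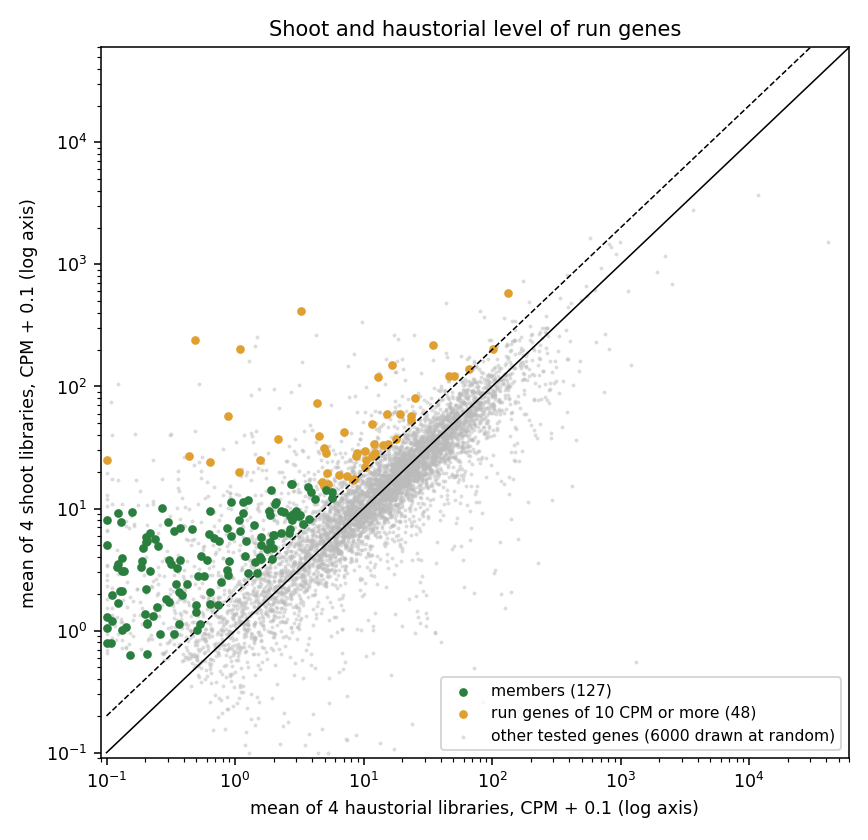
Mean level in the 4 shoot libraries (vertical axis) against the mean in the 4 haustorial libraries (horizontal axis), both as CPM + 0.1 on log axes. The 127 members and the 48 run genes of 10 CPM or more lie above the dashed line of a 2-fold ratio, as the rule demands; the members spread along the horizontal axis from genes with no haustorial count to genes near the dashed line, and grey points are 6000 other tested genes.

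The members differed widely in their counts in the haustorial region. No haustorial count at all was found for 5 members, 1 to 3 counts over the 4 libraries for 13, 4 to 40 counts for 43 and more than 40 counts for 66. A further 2910 genes were flagged and under 10 CPM but stood outside the runs. No haustorial count was found for 3.94% of the members and for 3.33% of these other genes. The median ratio was 5.69 for the members and 4.37 for the other genes, and 63.8% of the members and 53.7% of the other genes had a ratio of at least 4. A ratio of at least 8 was found for 34.6% of the members and 29.3% of the other genes. For a ratio of at least 16 the shares were 20.5% and 13.7%. At a ratio of at least 32 the order was reversed, with 4.72% of the members and 5.46% of the other genes. The highest ratio was 80.6 among the members and 195 among the other genes. These differences were not tested, since the same contrast chose both sets.

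Among the runs made only of members, the largest median ratio, 47.7, was that of the 4 genes from Cc036523 to Cc036526. Cc036523 was at 8.90, 10.3, 10.97 and 9.59 CPM in shoot replicates 1 to 4, against 0.0451, 0.134, 0.350 and 0.161 CPM in haustorial replicates 1 to 4. Cc036524 was at 7.66, 10.8, 9.82 and 8.55 CPM in the shoot, against 0.0451, 0.0446, 0.105 and 0.0403 CPM in the haustorial region. The lowest shoot library of either gene stood more than an order of magnitude above its highest haustorial library. Cc036525 was at 5.72, 5.596, 8.71 and 10.7 CPM in the shoot, against 0, 0.0446, 0.0699 and 0 CPM in the haustorial region. Cc036526 was at 1.38, 1.89, 2.50 and 2.28 CPM in the shoot, against 0, 0.0892, 0.0350 and 0 CPM in the haustorial region. The haustorial values of these last genes rest on 3 counts each.

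The edgeR log2 fold change, shoot over haustorial region, was 5.73 ± 0.27 (SE) for Cc036523 and 7.13 ± 0.28 for Cc036524. For Cc036525 the ratio of counts was 245, with an exact 95% interval of 83.6 to 1191 for counting error, and for Cc036526 it was 64.4 (21.8 to 315). The smallest ratio in this run was 16.1, whereas 29 of the 40 runs held a gene with a ratio under 3.

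The 4 members from Cc034755 to Cc034758 had ratios close to each other. They averaged 2.01, 1.85, 1.59 and 1.10 CPM over the shoot libraries, in the order of their numbers, against 0.0276, 0.0112, 0.0226 and 0.0113 CPM over the haustorial libraries. Of their 16 haustorial values, 11 were 0. The ratios lay between 10.8 and 17.5, so the largest was 1.63 times the smallest, and the added 0.1 CPM sets much of their size because the haustorial means lie below it. Another run with haustorial means below 0.1 CPM went from Cc005468 to Cc005471, with less similar ratios of 12.9 to 29.8. Its genes had shoot means of 3.21, 3.20, 3.80 and 1.19 CPM against haustorial means of 0.0214, 0.0863, 0.0310 and 0 CPM. The last of these had 139 counts in the shoot and none in the haustorial region, so that it was at least 38.9-fold higher in the shoot when 3 counts over the group are put in place of 0. Both runs were picked for description after their values were seen.

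**Figure D2:**
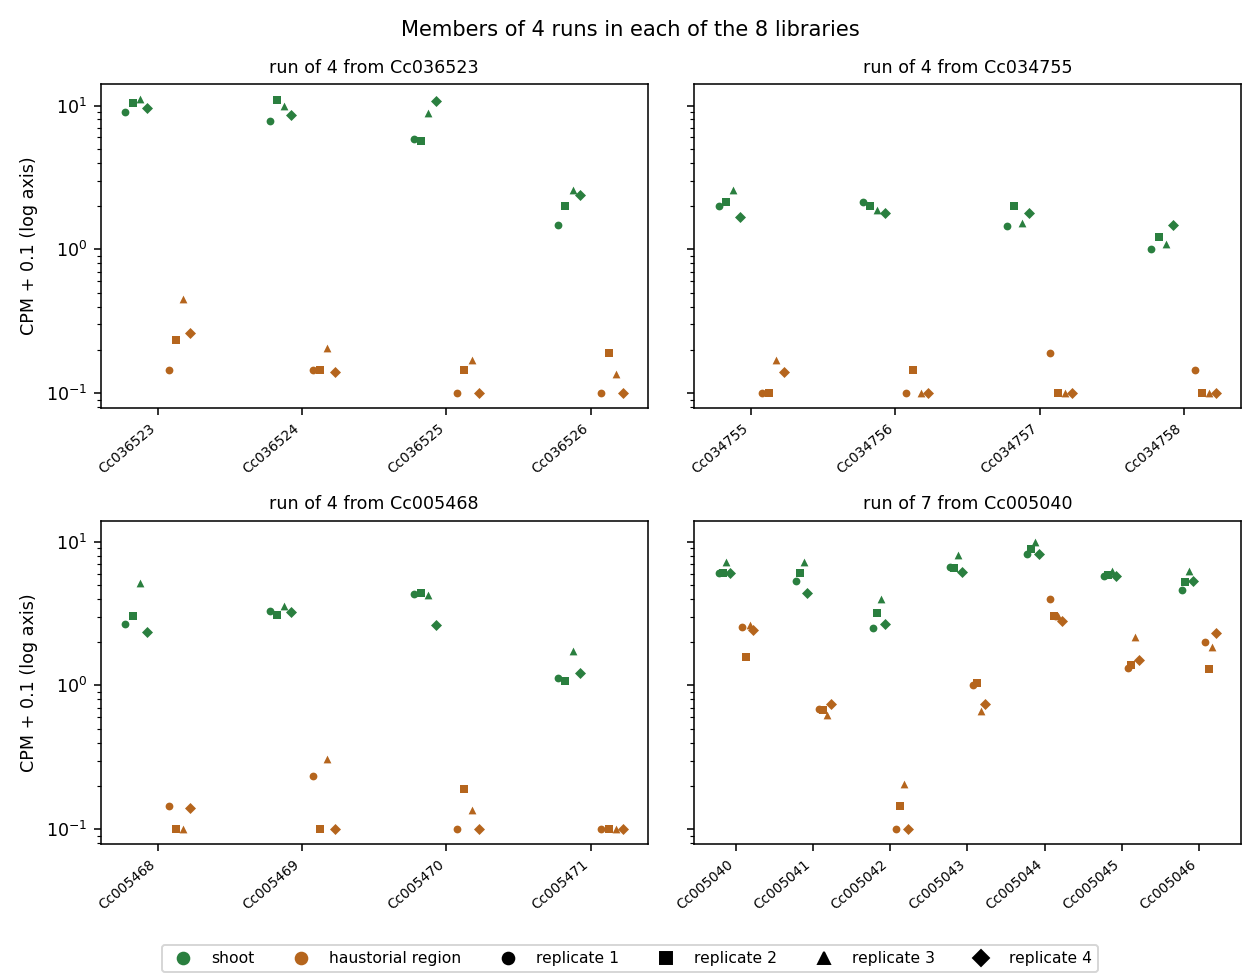
CPM + 0.1 on a log axis for each gene of 4 runs, with shoot libraries in green left of the haustorial libraries in brown and a symbol for each replicate. In the runs from Cc036523, Cc034755 and Cc005468 the haustorial values lie at or near the floor, while in the run from Cc005040 they range from the floor to 3.88 CPM and shoot replicate 3 is the highest shoot library of all 7 genes.

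The longest run held 7 genes, from Cc005040 to Cc005046, and all were members. Their haustorial levels were unequal. Cc005042 was at 2.41, 3.09, 3.91 and 2.57 CPM in shoot replicates 1 to 4, against 0, 0.0446, 0.105 and 0 CPM in haustorial replicates 1 to 4. Cc005041 was at 5.23, 5.90, 7.06 and 4.32 CPM in the shoot, against 0.587, 0.580, 0.524 and 0.645 CPM in the haustorial region. Cc005043 was at 6.61, 6.48, 8.02 and 6.06 CPM in the shoot, against 0.903, 0.937, 0.559 and 0.645 CPM in the haustorial region. In these genes the haustorial libraries held a small part of the shoot level, with log2 fold changes of 6.05 ± 0.48, 3.26 ± 0.22 and 3.17 ± 0.20 (SE).

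The other genes of the run kept more of their level in the haustorial region. Cc005040 averaged 6.24 ± 0.571 CPM in the shoot and 2.19 ± 0.485 CPM in the haustorial region (SD, n = 4 each). Cc005044 averaged 8.71 ± 0.822 CPM in the shoot and 3.12 ± 0.522 CPM in the haustorial region. Cc005045 averaged 5.80 ± 0.212 CPM in the shoot and 1.497 ± 0.386 CPM in the haustorial region. These genes had ratios of 2.77, 2.74 and 3.70, and the separation of their values follows from the rule. Cc005046 averaged 5.24 ± 0.659 CPM in the shoot and 1.77 ± 0.423 CPM in the haustorial region, a log2 fold change of 1.56 ± 0.19.

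The largest ratios belonged to members of 3 different runs. Cc005002 was at 7.66, 5.21, 10.3 and 8.72 CPM in the shoot and had no count in any haustorial library, so that it was at least 262-fold higher in the shoot. Cc006141 was at 7.02, 10.6, 10.1 and 8.80 CPM in the shoot, against 0.0451, 0.0446, 0 and 0 CPM in the haustorial region, from 1048 and 2 counts. Its ratio of counts was 440.3, with an interval of 122 to 3640 for counting error. The remaining one was Cc036525, described with its run. Another member without a haustorial count, Cc031993, was at 4.81, 4.13, 5.82 and 4.98 CPM in the shoot and was at least 162-fold higher there.

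The smallest ratios lay at the limit of the rule. Cc015564 was at 3.10, 3.94, 4.24 and 3.78 CPM in the shoot, against 2.03, 1.92, 1.40 and 1.98 CPM in the haustorial region, a ratio that met the limit of 2. Cc046562 was at 2.52, 3.28, 3.94 and 1.79 CPM in the shoot, against 0.993, 1.56, 1.33 and 1.65 CPM in the haustorial region, a ratio of 2.01. Its lowest shoot library was 1.08 times its highest haustorial library. The narrowest separation was that of Cc045900, with 0.802 CPM in its lowest shoot library against 0.766 CPM in its highest haustorial library. Cc024270, the only member of its run and the run with the smallest median ratio of members, averaged 0.920 ± 0.165 CPM in the shoot and 0.404 ± 0.120 CPM in the haustorial region, a ratio of 2.02. Just outside the rule, Cc031598 and Cc005039 each stood beside a run, had no overlap between tissues and had ratios of 1.71 and 1.64. No tested gene bordering a run had a ratio of at least 2 with overlapping values. In 10 of the 127 members the lowest shoot value was less than 1.5 times the highest haustorial value, and in 99 it was at least 2 times as high.

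The runs were mostly short. Of the 40 runs, 28 held 4 genes, 10 held 5, 1 held 6 and 1 held 7, while 94 stretches of 3 flagged genes fell below the minimum length. Only members made up 11 of the runs, with 51 members in all, and 28 runs mixed 76 members with more abundant genes. The remaining run had 4 genes of 10 CPM or more and no member. CPM is not corrected for gene length, which the files do not give, so a gene above 10 CPM may be longer rather than more expressed.

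The 48 run genes kept out by the limit of 10 CPM started just above it. Cc032904 was inside at a mean of 9.51 CPM over the 8 libraries, and Cc012787 was outside at 10.1 CPM, with a mean of 15.3 ± 1.65 CPM in the shoot and 4.85 ± 1.15 CPM in the haustorial region. Cc028794, also among the 48, was at 580 ± 21.4 CPM in the shoot and 134 ± 4.80 CPM in the haustorial region. It closes a run whose other genes are 3 members. In the run from Cc031990 to Cc031993, the inner genes Cc031991 and Cc031992 averaged 202 and 418 CPM in the shoot, against 0.998 and 3.14 CPM in the haustorial region. The members on either side are Cc031993, described above, and Cc031990, at 2.40 ± 0.376 CPM in the shoot and 0.671 ± 0.256 CPM in the haustorial region.

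The size of the ratio varied within runs as well as between them. The SD of the log2 ratio was 1.31 over the 127 members, and 1.12 within the 36 runs that held at least 2 members. Over all 175 run genes, members or not, the largest ratio of a run was 5.91 times its smallest at the median. This ranged from 1.40 times in the run starting at Cc045898 to 159 times in the run starting at Cc034814, which holds no member. In 5 runs every gene reached a ratio of at least 4, namely those that start at Cc004999, Cc005468, Cc009698, Cc034755 and Cc036523.

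**Figure D3:**
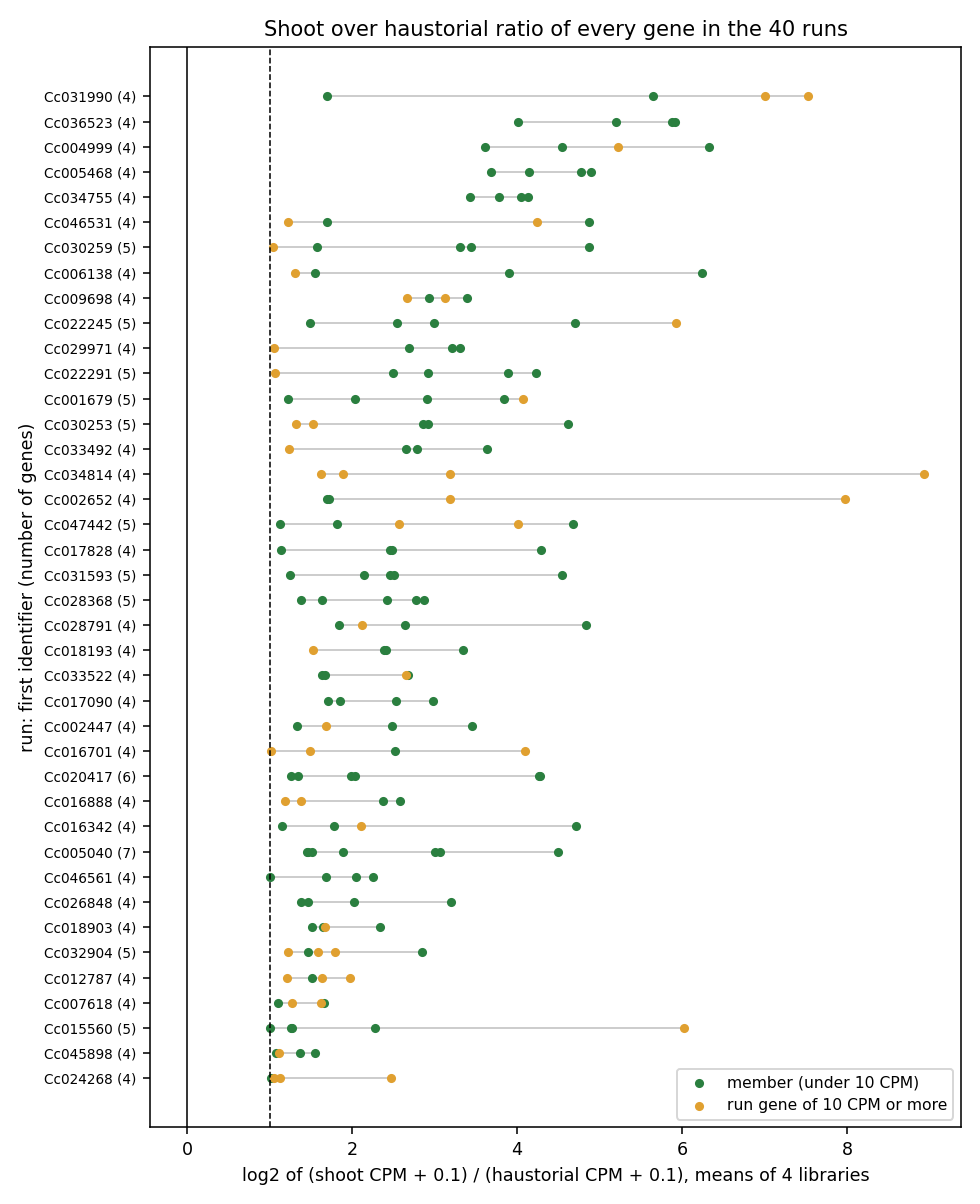
Log2 ratio of shoot over haustorial region for every gene of the 40 runs, 1 row per run, named by its first identifier with the number of genes in brackets and ordered by median ratio. Green points are members, orange points are run genes of 10 CPM or more, and the dashed line marks the 2-fold limit of the rule; most rows reach from near that line to well above it, and in the rows of Cc004999, Cc005468, Cc009698, Cc034755 and Cc036523 every gene has a ratio of at least 4.

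The runs were scattered over the numbering, which goes from 3 to 47660 with 1833 numbers unused. The median gap between neighbouring runs was 734 numbers and the largest 9371, and 6 gaps were shorter than 100 numbers. The shortest gap was 1 number. The runs from Cc030253 to Cc030257 and from Cc030259 to Cc030263 were separated only by Cc030258, which was not tested because it had almost no counts, with 3 in the shoot libraries together and 1 in the haustorial libraries together. Their 10 genes therefore include every gene with enough counts among 11 consecutive numbers, and 7 of them were members.

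The genes numbered next to the runs were described in the same way. Of the 79 numbers that border a run, 59 belonged to tested genes, 19 to genes with too few counts and 1 was unused. None of the 59 could be flagged, or it would have joined the run. Their median ratio was 0.976, and 33 of them were below 1. From the second to the tenth number on either side, where the rule sets no such limit, 82 of 562 tested genes were flagged (14.6%), beside 14.7% of all tested genes, and the median log2 ratio was 0.01 against 0.02 over all tested genes. The same rule with the tissues exchanged flagged 2903 genes and found 4 runs with 1 gene under 10 CPM. Of the genes flagged in that direction 1296 were under 10 CPM, against 3037 of those higher in the shoot. How far the number of runs depends on the number of flagged genes was not tested.

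**Figure D4:**
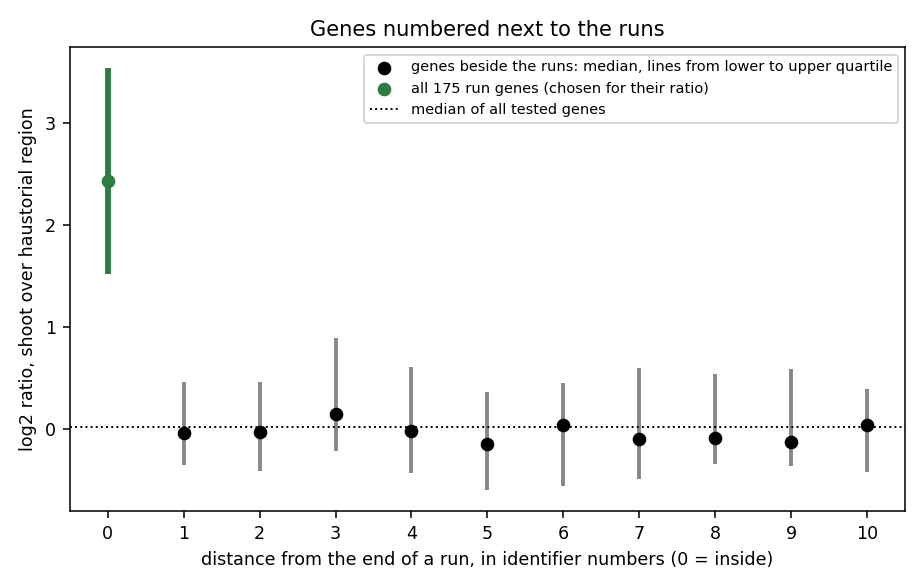
Median log2 ratio of shoot over haustorial region by distance in identifier numbers from the end of a run, with lines from the lower to the upper quartile; distance 0 stands for the 175 run genes, which were chosen for their ratio. From 1 to 10 numbers away the medians lie between -0.14 and 0.15, around the dotted median of all tested genes at 0.02.

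Differences among the shoot libraries, which the rule did not rank, were not spread evenly over the members. Shoot replicate 3 was the highest shoot library for 56 of the 127 members (44.1%), replicate 2 for 31, replicate 1 for 21 and replicate 4 for 19. Among the 13617 tested genes under 10 CPM that had a shoot count, replicate 3 was highest for 25.7% and replicate 4 for 26.8%. Among flagged genes under 10 CPM outside the runs, the shares were 30.7% for replicate 3 and 31.2% for replicate 4. The members' shares thus differed from both in replicates 3 and 4. In replicate 1 the share was 16.5% of the members and of the flagged genes outside the runs. In replicate 2 it was 24.4% of the members and 24.2% of the tested genes. The size of the shift was small, with a median deviation of 0.10 (log2, 0.5 CPM added) from the shoot mean in replicate 3. By this measure the members were lowest in replicate 1, at -0.08, with -0.01 in replicate 4. The flagged genes under 10 CPM outside the runs were at 0.03 in replicate 3, -0.06 in replicate 1 and 0.03 in replicate 4. Members of a run can peak together, so the 127 genes are not independent and the shares were not tested. Among the 122 members with a haustorial count, the share with their highest haustorial value in a given library ran from 20.5% in replicate 3 to 30.3% in replicate 2.

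**Figure D5:**
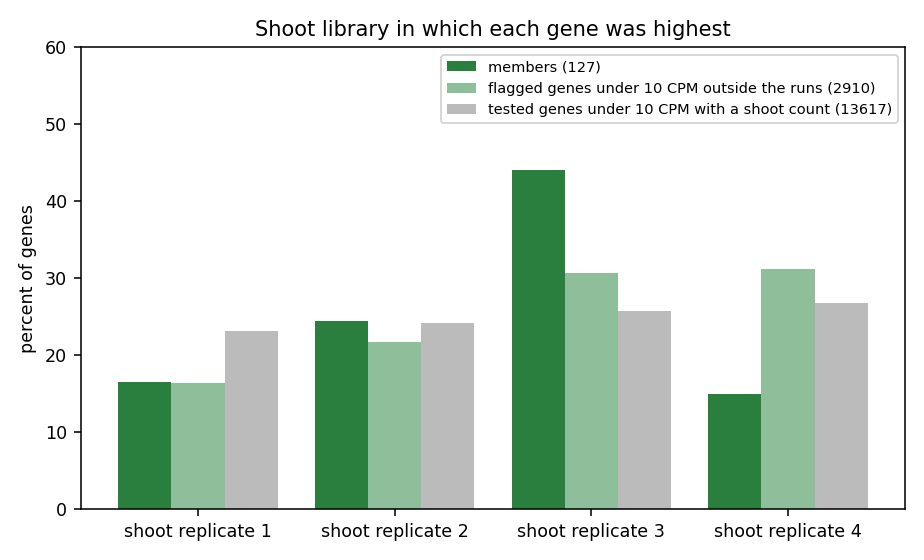
Percent of genes that had their highest shoot value in each of the 4 shoot libraries, for members, for flagged genes under 10 CPM outside the runs and for tested genes under 10 CPM with a shoot count. The bar of the members reaches 44.1% in shoot replicate 3 and 15.0% in shoot replicate 4, while the grey bars lie between 23.2% and 26.8%.

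Members with consecutive numbers were compared for the shoot library in which they peaked. Of 75 pairs of members with consecutive numbers, 33 (44.0%) were highest in the same one, against 32.5% of 295 consecutive pairs of flagged genes under 10 CPM outside the runs and 27.2% of 4538 consecutive pairs of tested genes under 10 CPM with shoot counts in both. The longest run contributed every one of its 6 pairs, and without it the share was 39.1% of 69. Of the 70 member pairs in which both genes had a haustorial count, 35.7% shared their highest haustorial library, against 29.7% of 276 such pairs of flagged genes under 10 CPM outside the runs and 28.3% of 4493 such pairs of tested genes under 10 CPM. The pairs draw on the same 4 libraries, and replicate 3 was the most frequent for members, so these shares are descriptions with no test.

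All members peaked in 1 shoot library in 4 of the 29 runs with at least 3 members. In the run from Cc005040 this was replicate 3 for each of the 7 genes. In the run from Cc028368 to Cc028372 it was replicate 2 for each of the 5 genes, a run named after its values were seen. Its gene Cc028369, for example, was at 8.76, 13.2, 11.7 and 10.9 CPM in shoot replicates 1 to 4, against 1.31, 3.26, 1.54 and 1.86 CPM in haustorial replicates 1 to 4. In the haustorial region replicate 2 was the highest library for 4 of the 5 genes, and replicate 4 for Cc028371. For Cc028370 this was nearly a tie, with 2.05 CPM in haustorial replicate 2, 2.03 CPM in replicate 1 and 1.98 CPM in replicate 4. Whether near-identical copies share reads within a run was not tested, and reads of such copies may have been split or dropped in counting, so the levels of single genes in a run are uncertain to that extent.

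The spread between shoot libraries was compared within classes of shoot level, without a test. Members with a shoot mean of 2 to 5 CPM had a median coefficient of variation of 19.4%, against 16.1% for flagged genes under 10 CPM outside the runs and 15.1% for all tested genes other than members. Between 5 and 10 CPM the values were 15.2%, 12.5% and 10.5% in the same order. Between 10 and 20 CPM the members, 14 in number, had 10.2%, against 10.7% and 7.99%. Between 1 and 2 CPM the values were close, with 23.3% for the 20 members, against 22.2% and 21.8%. Under 1 CPM the order was another, with 28.3% for the 10 members of that class, 24.6% for the flagged genes outside the runs and 32.7% for the other tested genes.

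The ratio was also read in libraries left out when the genes were chosen again. The rule and its limits had still been set with all 8 libraries known. Members were chosen again 4 times, each time without the shoot and the haustorial library of a replicate number, and the ratio was then taken in the omitted libraries. Without replicate 1, 127 genes were chosen, and 118 of them (92.9%) had a ratio of at least 2 in the omitted libraries. Without replicate 2 it was 108 of 126 (85.7%), without replicate 3 it was 115 of 120 (95.8%), and without replicate 4 it was 127 of 142 (89.4%). Over all tested genes the share was 15.4% to 17.4%, and among flagged genes under 10 CPM outside the runs it was 83.8% to 88.6%. The median omitted ratio of the chosen genes was between 4.55 and 7.72. Of all these choices, a single gene was lower in the omitted shoot library than in the omitted haustorial library, in the choice without replicate 2. In that choice the same held for 45 of 3039 flagged genes under 10 CPM outside the runs and for 15990 of all 33057 tested genes. In the choices without replicates 1 to 4, 118, 106, 119 and 120 of the genes were among the 127 members. With 1 library of each tissue omitted at a time, and a rule set on the same libraries, these values carry no test.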

How the data were processed

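Polyadenylated RNA of 8 pools was sequenced, and samples were grouped by their titles. Each deposited file gives the raw read count of every gene in 1 sample, in whole numbers without scaling. The submitters' processing notes name STAR 2.5.2b. The counter, the genome build, the annotation and the strandedness used for counting are not given in the sources used, so reads of overlapping genes cannot be assigned to a strand. The number of columns left unused was 0.

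The analysis used R 4.3.3 with edgeR 4.0.16, whose filterByExpr function at defaults chose the tested genes by tissue and whose TMM factors scaled the CPM. The tissues were compared over all genes with edgeR's robust quasi-likelihood test, Benjamini-Hochberg adjusted at 0.05, with tissue as the only term; fold changes are shoot over haustorial region, and a standard error is the log2 fold change over the square root of F. The omitted libraries were scaled with TMM factors of all 8 libraries. Bounds and 95% intervals use summed counts over scaled library sizes, put 3 counts over the group in place of 0, and cover counting error only. The scripts were tested on simulated data.

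The members, lists and rules were chosen with earlier results of these data known. Named genes are those of the longest run, of the runs with extreme median ratios, with the largest and smallest ratios, the 2 with the most shoot counts among those without haustorial counts, and nearest to each limit; others are marked where they appear. In the run with the smallest median ratio only the member is given. No label ties a replicate number to shared plants, so p-values measure the spread between pools. DESeq2 1.42.0 served as an alternative.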

Additional observations from a re-analysis of the deposited data

Results flagged for a closer look

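In groups of 4 libraries, 10 of 94 sets of values held a library whose gap to the nearest other exceeded the 95% critical share of the range by Dixon's test. Chance gives about 1 in 20 for normally distributed values, which sets of very few counts are not, so no excess is read from this number. In the longest run, Cc005040 was at 7.10 CPM in shoot replicate 3, above the other shoot libraries, and at 1.47 CPM in haustorial replicate 2, below the other haustorial libraries. Cc005470 was at 2.53 CPM in shoot replicate 4, below the others. Cc028794, a run gene above the limit of 10 CPM, was at 548 CPM in shoot replicate 1, below the others. Cc031598, which stands beside a run, was at 5.26 CPM in shoot replicate 3, above the others. Cc028370 was at 1.22 CPM in haustorial replicate 3, below the others. The remaining values rest on 1 to 3 counts. Cc036524 was at 0.105 CPM in haustorial replicate 3. Cc034756 was at 0.0446 CPM in haustorial replicate 2. In haustorial replicate 1, Cc034757 was at 0.0903 CPM and Cc034758 at 0.0451 CPM. For Cc034756, Cc034757 and Cc034758 every other haustorial value was 0, so any count in a single library would have been flagged.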

How the results depend on the processing

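The numbers of members and runs are set by the limits of the rule. Against 127 members in 40 runs, there were 63 in 20 with a pseudocount of 1 CPM, 247 in 93 with a ratio of at least 1.5, 24 in 7 with a ratio of at least 4, 318 in 134 with runs of at least 3, 51 in 12 with runs of at least 5, and 310 in 105 when 1 unflagged number was allowed inside a run. The numbers under RLE, upper-quartile and library-size scaling, under other filters, with overlap allowed and with ceilings of 5 and 20 CPM were within 1.5 times, from 92 to 157 members. Leaving out each library gave 121 to 146 members, of which 111 to 126 were among the original 127, in 39 to 45 runs. The median log2 ratio of 2.51 was 1.76 and 1.41 with 0.5 and 1 CPM added, 2.67 with library-size scaling, which shifts the median of all genes from 0.02 to 0.21, and 2.38 to 2.60 without each library. The median ratio of re-chosen members in the omitted libraries ranged from 4.55 to 7.72, with 5.48 for replicate 1 and 5.09 for replicate 4. The members' counts were 5.94 times as large a share of the shoot as of the haustorial libraries, and 5.21 times with scaled library sizes. Fold changes were recomputed for 41 genes, which include every tested gene given with a value; in 611 of 612 alternative values they kept their direction and side of the threshold, the exception being Cc045900, whose log2 fold change of 1.24 was 1.04 without shoot replicate 3 (edgeR adjusted p = 0.0509). The 21412 genes called over the whole table were 19980 to 21282 without each library and 20659 with the replicate block. Same-numbered libraries had deviations correlated at -0.08 to 0.05, and 0 of 8 correlated best with their own number, so no pairing is known. Without shoot replicate 3, 126 of the 127 members were called higher in the shoot, beside 10475 of all 33047 genes tested. In the other fits every member tested was called, beside 10565 to 14544 of all tested genes. The stricter filter tested 111 of the members. Because the same libraries chose the members, nothing is read from these counts. Depth limits the ratios of members with 3 or fewer haustorial counts, which depend on the added 0.1 CPM.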
